A study of Mus musculus with 2 samples.

Results

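Genomic imprinting leaves a small set of mammalian genes active mainly from the copy inherited from the mother or from the copy inherited from the father. In total, 32 well-known imprinted mouse genes were taken by name from the 32285 genes measured and followed through single-cell RNA profiles of endothelial cells from melanoma-bearing mice that carried or lacked a working *Dnmt1* gene in their endothelium. All 32 were present in the count matrices, *Nespas* under the symbol *Gnasas1*.

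Each condition was 1 library made from 3 pooled female mice of 8 to 10 weeks. The *Dnmt1*iECKO mice were Cdh5CreERT2;Dnmt1fl/fl;ZsGreenlsl/lsl, in which tamoxifen turns on Cre recombinase wherever the endothelial gene *Cdh5* is active, so that *Dnmt1* is lost there ahead of the tumor. The control label gives the genotype only as C57BL/6, while the methods of the study describe the controls as Cre and ZsGreen mice without the floxed *Dnmt1* alleles. Tumors came from YUMMER1.7, a mouse melanoma line with a high mutation load, and CD31+ CD45- cells were sorted from them before 3′ single-cell sequencing. The labels place the tumors under the skin and the methods place them in the lung, and epithelial markers were found in both libraries.

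Imprints are laid down as DNA methylation at control regions in the egg or sperm, and they are then carried through every later cell division of the body. DNMT1 is the enzyme that copies methylation at CpG dinucleotides onto the new DNA strand, and the zinc finger proteins ZFP57 and ZFP445 bring protective factors to the methylated copy. Several control regions are also promoters of long noncoding RNAs, such as *Airn* and *Kcnq1ot1*, whose transcription from the unmethylated paternal copy silences protein-coding neighbors on that same chromosome.

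The stretches just before the start of 4 members differed in CpG content, CpGs being the sites at which DNMT1 copies methylation. Bases past a start site were not read, so the counts do not describe a whole promoter or imprint control region. Of the 32 members, 26 had at least 1 promoter in the RefSeq table used, and 41 windows of 250 bases immediately before a start site were read, all on GRCm38.p6. They are written 5′ to 3′ along the strand of the gene with each CpG in capitals. *Airn* (chr17:12741061-12741310, plus strand) and *Kcnq1ot1* (chr7:143296548-143296797, minus strand) are the antisense RNAs, *Igf2r* (chr17:12769707-12769956, minus strand) is the gene that *Airn* runs into, and *Nnat* (chr2:157559828-157560077, plus strand) is a paternally expressed gene inside an intron of *Blcap*.
Airn: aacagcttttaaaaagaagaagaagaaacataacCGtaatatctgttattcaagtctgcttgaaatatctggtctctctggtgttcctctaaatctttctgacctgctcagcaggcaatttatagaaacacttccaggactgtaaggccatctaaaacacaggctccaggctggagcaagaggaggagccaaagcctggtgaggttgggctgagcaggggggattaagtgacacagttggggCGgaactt
Kcnq1ot1: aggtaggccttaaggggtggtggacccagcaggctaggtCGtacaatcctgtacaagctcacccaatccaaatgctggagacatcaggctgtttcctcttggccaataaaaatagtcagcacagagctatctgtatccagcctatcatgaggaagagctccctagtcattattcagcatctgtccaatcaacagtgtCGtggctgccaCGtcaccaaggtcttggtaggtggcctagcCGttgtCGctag
Igf2r: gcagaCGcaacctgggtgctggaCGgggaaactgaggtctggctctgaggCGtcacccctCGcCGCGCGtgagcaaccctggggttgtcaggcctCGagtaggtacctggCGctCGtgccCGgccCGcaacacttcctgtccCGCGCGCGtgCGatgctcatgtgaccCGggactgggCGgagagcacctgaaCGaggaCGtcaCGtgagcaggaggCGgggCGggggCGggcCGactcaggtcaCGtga
Nnat: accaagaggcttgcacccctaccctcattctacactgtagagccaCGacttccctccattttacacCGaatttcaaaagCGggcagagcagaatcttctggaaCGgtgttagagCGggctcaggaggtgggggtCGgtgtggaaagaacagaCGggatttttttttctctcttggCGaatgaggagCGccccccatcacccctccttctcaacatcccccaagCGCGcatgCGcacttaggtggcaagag
These windows held 2 CpGs for *Airn*, 5 for *Kcnq1ot1*, 27 for *Igf2r* and 12 for *Nnat*. The median was 8.00 over the 41 member windows and 6 over 32851 windows of that length in the whole table, and 19 of the 41 held at least 10 CpGs against 37.8% of all windows.

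The letters TGCCGC, the sequence that ZFP57 is known to bind when its CpG is methylated, were searched on both strands, where the other strand reads GCGGCA. They occurred in 5 of the 41 member windows, belonging to *Mest*, *Plagl1*, *Meg3* and *Zim1*, and in 8.68% of all windows. The windows of *Mest* (chr6:30737800-30738049, plus strand) and *Plagl1* (chr10:13090582-13090831, plus strand), of which the first had a lower level in the *Dnmt1*iECKO library and the second a ratio that depended on the cells included, are shown with these letters in capitals.
Mest: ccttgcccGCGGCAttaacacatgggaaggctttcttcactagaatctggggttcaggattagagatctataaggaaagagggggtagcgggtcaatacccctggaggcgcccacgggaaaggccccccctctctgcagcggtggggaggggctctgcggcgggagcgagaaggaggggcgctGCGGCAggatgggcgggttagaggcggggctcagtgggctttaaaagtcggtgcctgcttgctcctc
Plagl1: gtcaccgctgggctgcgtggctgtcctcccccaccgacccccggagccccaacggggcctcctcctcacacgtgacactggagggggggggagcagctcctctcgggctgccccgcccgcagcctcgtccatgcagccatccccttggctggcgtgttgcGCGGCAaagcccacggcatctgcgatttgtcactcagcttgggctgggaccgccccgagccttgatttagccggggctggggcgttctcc
*Mest* had 2 matches in this window, and a start site 3 bases further on gave a window with the same pair. A match is only a description of letters, and no methylation was measured here.

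Endothelial cells were taken as cells with a UMI, a counted RNA molecule, of *Cdh5* or *Pecam1* and none of *Ptprc*, *Hmga2* or *Dcn*, which mark leukocytes, the putative tumor cells and fibroblasts. After removal of poor cells and likely doublets, 5192 control and 2171 *Dnmt1*iECKO cells passed this gate, with median depths of 9906 and 10080 UMIs. The labels call the cells melanoma cells, but in the gated cells 6 endothelial marker genes that the gate did not use summed to 4154 counts per 1e6 UMIs (CPM) in control and 3656 CPM in *Dnmt1*iECKO, and 9 melanoma marker genes that it did not use to 33.9 and 29.4 CPM. *Mitf* alone gave 27.6 and 23.1 CPM of the melanoma sums. Even the cluster of all cells led by *Hmga2* had fewer than 3 of the 10 listed melanoma markers raised enough to be named. A low sum therefore cannot show that tumor cells were absent. *Dnmt1* itself stood at 48.1 and 25.9 CPM, a log2 ratio of -0.90 with a 95% counting interval from -1.01 to -0.78. A 3′ tag outside the deleted exons is still counted, so this level does not measure how many alleles were deleted.

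With 1 library per condition nothing could be tested. Levels are CPM from summed UMIs with exact Poisson intervals, log2 ratios are *Dnmt1*iECKO over control with exact intervals given the sum of both counts, and these intervals cover counting error only, not the spread between mice. In summed counts, fewer cells with a gene and less RNA per cell cannot be told apart. The gate also held clusters named by markers for other cell types (pericytes and smooth muscle, epithelium, fibroblasts, platelets), so ratios that depended on them are given both ways. The set called without clusters of other types held 4366 and 1787 cells. It also lacked gated clusters with *Cdh5* below 50% of the level in the gate. These were the lymphatic-like cells (32 and 16), which are endothelial, and the cluster led by *Igkc* (18 and 19 cells). Leaving these clusters out did not even out stromal RNA. The 9 fibroblast marker genes summed to 349 and 578 CPM in the gate and still to 254 and 496 CPM without clusters of other types. For 8 pericyte and smooth muscle markers the sums were 164 and 305 CPM in the gate and 41.7 and 45.3 CPM without those clusters. The part of such RNA in the member ratios was not tested. The libraries had 29 barcodes in common, and 24 gated cells carried one.

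In endothelial cells, 25 of the 32 members had at least 20 UMIs over both libraries, 5 had fewer and 2 had none. The median log2 ratio of those 25 was -0.013, beside -0.003 for 16219 genes with the same minimum, with 12 members above 0 and 13 below. At least 1.5-fold higher in *Dnmt1*iECKO was 1 member, *H19*, against 9.82% of all genes, and 1.5-fold lower was 1 member, *Nnat*, against 5.28%. Without clusters of other types, 3 members were higher (*H19*, *Peg10* and *Plagl1*, with 10.6% of 15226 genes) and 3 were lower (*Meg3*, *Rian* and *Snrpn*, with 4.96%). Counting intervals lay wholly above 0 for 4 members (21.3% of all genes) and wholly below 0 for 6 (20.2%), and without clusters of other types for 7 (21.0%) and 9 (19.9%).

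**Figure D1:**
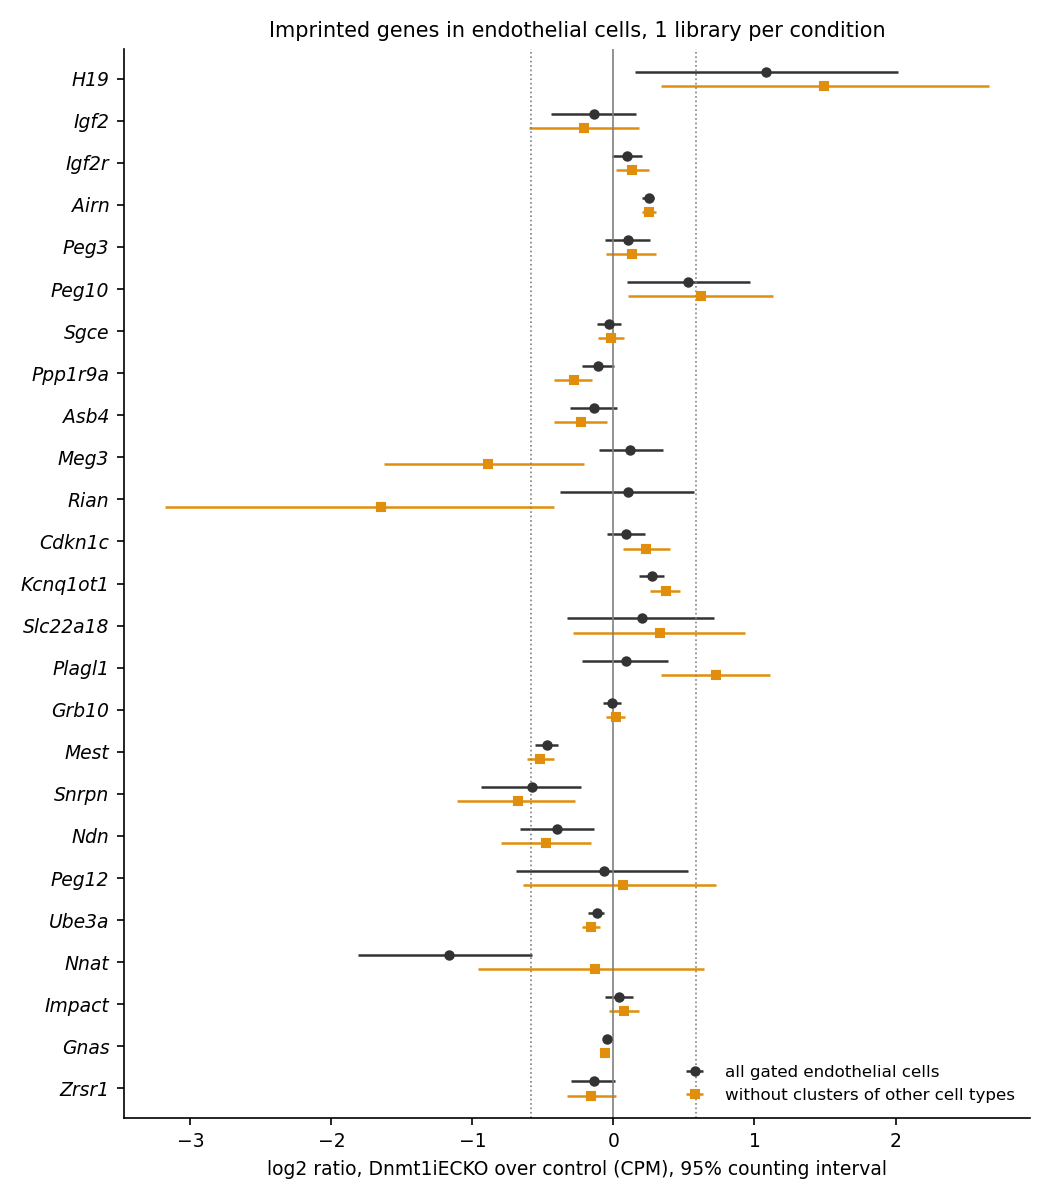
Log2 ratio of the *Dnmt1*iECKO over the control library for the 25 members with at least 20 UMIs, in all gated endothelial cells (circles) and without clusters of other cell types (squares), with 95% counting intervals and dotted lines at 1.5-fold. Most points lie between the dotted lines, *H19* lies to the right at 1.08, and *Nnat*, *Meg3*, *Rian* and *Plagl1* shift between both sets.

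Of the 15 members listed here, from general knowledge, as starting at or close to a methylated imprint, 13 could be measured and their median was 0.089, with 4 intervals above 0 and 3 below. The other 17 gave 12 measured members with a median of -0.055, 0 intervals above 0 and 3 below. The shares of all genes were 21.3% above and 20.2% below. With clusters of other types left out the counts were 5 above and 3 below for the first list and 2 above and 6 below for the second, beside 21.0% and 19.9% of all genes. By expressed allele, the 9 measured maternal members had a median of 0.094 and the 14 paternal ones -0.047. Without clusters of other types the order of the alleles turned, with -0.16 for maternal and 0.023 for paternal members. In that set the maternal *Meg3* and *Rian* were at -0.89 and -1.65, both counted among the intervals below 0. Without 1 control cell each they were at 0.22 (-0.59 to 0.99) and 0.77 (-1.03 to 2.49). The turned order therefore leans on single cells, and medians without such cells were not computed.

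At the *Igf2r* locus on chromosome 17 the noncoding RNA was higher in *Dnmt1*iECKO. *Airn*, the paternal RNA that runs antisense through *Igf2r* and keeps the paternal *Igf2r* copy silent, was at 186 CPM (183 to 190) in the control library and 221 CPM (216 to 227) in *Dnmt1*iECKO, from 17606 UMIs in all, and these intervals did not overlap. The log2 ratio was 0.25 (0.20 to 0.29) and the same without clusters of other types, a set with unequal fibroblast marker RNA. Fibroblasts held *Airn* at 531 and 585 CPM, and the part of fibroblast RNA in this ratio was not tested. *Igf2r*, the receptor that carries IGF2 to lysosomes, was at 37.6 CPM (36.1 to 39.1) and 40.1 CPM (37.8 to 42.5), for a log2 ratio of 0.094 (-0.010 to 0.20). Thinned to 2000 UMIs a cell, with 342 and 168 shallower endothelial cells left out, 22.6% (21.4 to 23.8) and 26.0% (24.1 to 27.9) of endothelial cells held an *Airn* UMI (47.6% and 51.5% unthinned), and 7.11% and 10.2% of immune cells did. *Airn* and *Igf2r* overlap in part on opposite strands, as do *Kcnq1ot1* and *Kcnq1*, *Nespas* and *Gnas*, and *Ube3a* and *Snhg14*. If counting did not use strand, the reads of such partners cannot be told apart.

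Class makeup moved with the *Airn* difference. Its control level was 58.0 CPM in aerocyte-like cells, named for the large capillary cells of the gas exchange surface, 370 CPM in vein-like cells and 452 CPM in the cluster led by *Fabp4*, with the lowest, 19.1 CPM, in the shallow cluster led by *AY036118*. Vein-like cells numbered 158 of the gated control cells and 159 of the fewer *Dnmt1*iECKO cells. With the classes weighted by their shares in the control library the *Airn* log2 ratio was 0.078. Across the 13 endothelial classes with at least 20 UMIs it was above 0 in 7 and below 0 in 6, from -0.54 in the cluster led by *AY036118* to 0.33 (0.16 to 0.50) in aerocyte-like cells. Within interferon-like cells the libraries stood at 244 and 222 CPM, the other way around from the pooled value, and the ratio was -0.12 (-0.25 to 0.001) without the cell with most UMIs. How much of the pooled difference class makeup carries was not tested beyond this weighting. The 13 classes include the cluster led by *Robo2*, which also stayed in the set without clusters of other types. It shared the leading genes *Robo2*, *C7*, *Unc5c* and *Hs6st3* with a cluster of all filtered cells that was named fibroblast. Its *Cdh5* was 761 and 789 CPM, against 1354 and 1301 CPM in the whole gate.

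*Kcnq1ot1*, the paternal RNA antisense to *Kcnq1* on chromosome 7 that silences the neighboring *Cdkn1c* and *Phlda2*, was at 42.8 CPM (41.2 to 44.5) in the control library and 51.6 CPM (49.0 to 54.4) in *Dnmt1*iECKO, a log2 ratio of 0.27 (0.18 to 0.36) that was 0.37 (0.26 to 0.47) without clusters of other types. Weighted to the control classes it was 0.086. Fibroblasts held *Kcnq1ot1* at 162 and 167 CPM, and the part of fibroblast RNA in the endothelial ratio was not tested. Levels in vein-like cells were 36.8 and 51.1 CPM and in interferon-like cells 36.1 and 47.2 CPM, whereas aerocyte-like cells had 21.4 and 20.2 CPM and lymphatic-like cells 105 and 53.7 CPM, the last from 48 and 13 UMIs. In all, 7 of 13 classes were above 0, with 3 intervals above 0 and 1 below. Without the cell with most *Kcnq1ot1* UMIs of the class, the intervals of vein-like (0.33, -0.073 to 0.74), interferon-like (0.23, -0.075 to 0.53) and lymphatic-like cells (-0.65, -1.69 to 0.30) included 0. The intervals of the clusters led by *Cdk19* (0.66, 0.14 to 1.18) and *Fabp4* (0.84, 0.14 to 1.53) then lay above 0.

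*Cdkn1c*, the maternal gene for the cyclin-dependent kinase inhibitor p57, was at 24.0 CPM (22.8 to 25.2) and 25.5 CPM (23.6 to 27.4), for a log2 ratio of 0.088 (-0.044 to 0.22). Its gated UMIs were unevenly spread, with 41.8% in clusters of other types, and without those clusters the levels were 16.2 and 19.1 CPM (log2 ratio 0.23, 0.064 to 0.40). Artery-like cells held 289 CPM in 50 control cells and 199 CPM in 48 *Dnmt1*iECKO cells, a log2 ratio of -0.53 (-0.88 to -0.20). In that class 1 control cell held 54 *Cdkn1c* UMIs, and without it the control level was 216 CPM and the log2 ratio -0.11 (-0.48 to 0.25). The cluster led by *Fabp4* was lower, with 45 and 3 UMIs. The cluster led by *Robo2* (49 and 65 UMIs, log2 ratio 0.75) was higher, and that led by *AY036118* was at 20.0 and 45.1 CPM, or 20.0 and 28.9 CPM (0.53, -0.51 to 1.53) without 1 cell. *Cdkn1c* thus had no common direction over endothelial classes, 6 above 0 and 6 below. Of its neighbors, the transporter gene *Slc22a18* was at 1.54 and 1.77 CPM (log2 ratio 0.20, -0.33 to 0.71), and *Phlda2*, which limits placental growth, had 10 and 4 UMIs.

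**Figure D2:**
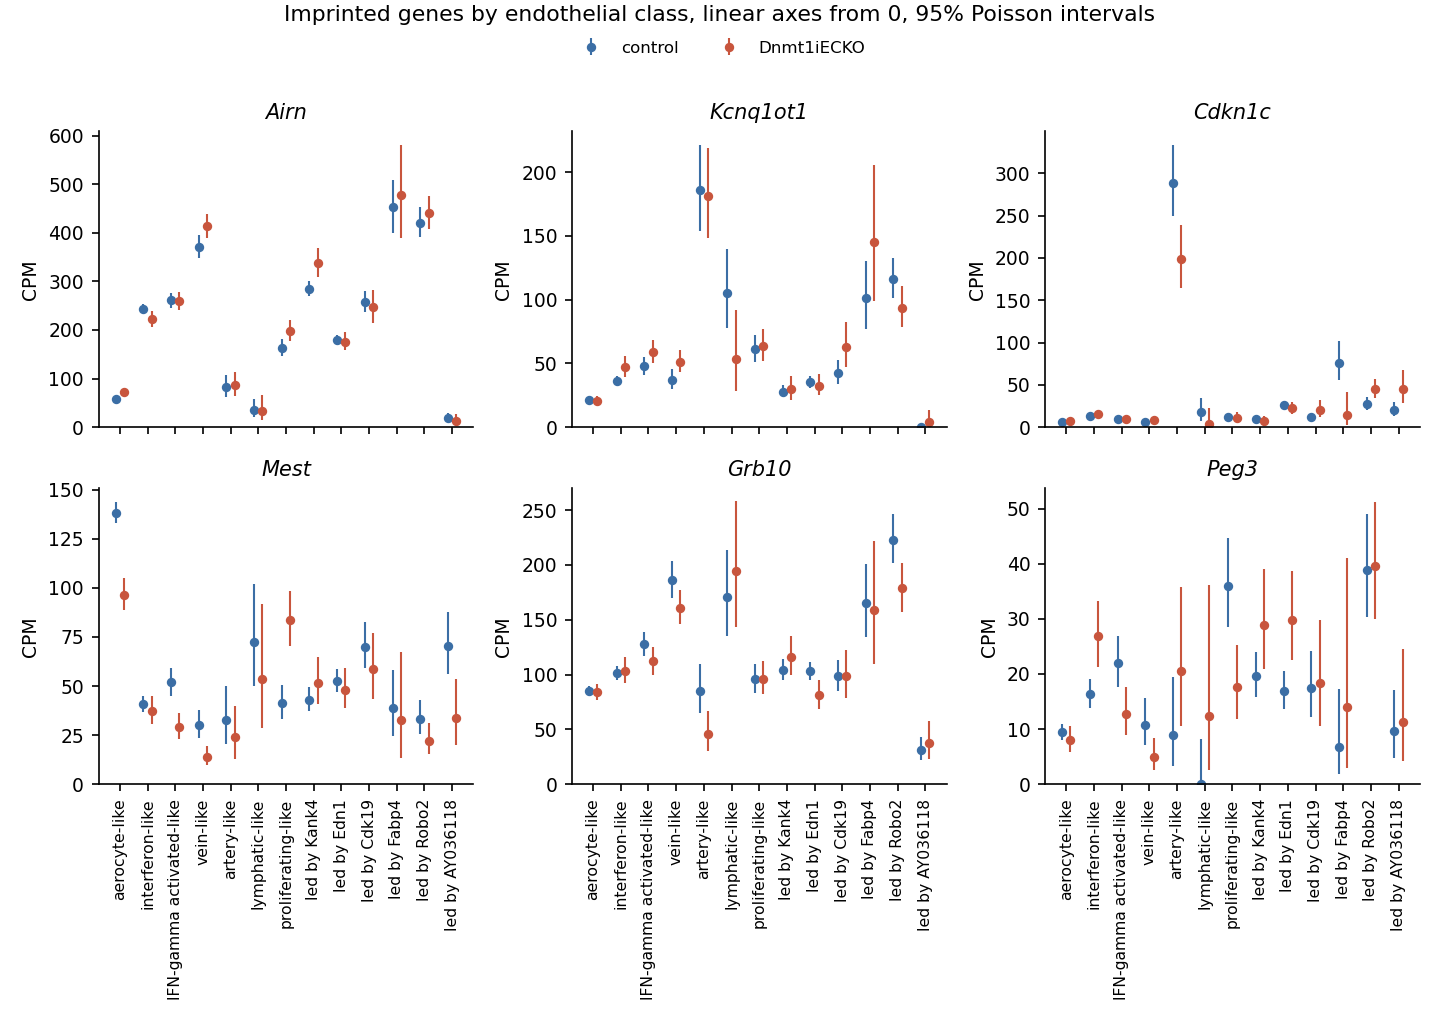
CPM of 6 members in 13 endothelial classes on linear axes from 0, for control (blue) and *Dnmt1*iECKO (red) with 95% Poisson intervals. *Cdkn1c* peaks in artery-like cells at 289 and 199 CPM and *Mest* is highest in aerocyte-like cells at 138 and 96.6 CPM.

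*Mest*, a paternally expressed gene for a hydrolase-fold protein of the endoplasmic reticulum, was lower in *Dnmt1*iECKO. It was at 70.3 CPM (68.2 to 72.4) in the control library and 50.6 CPM (48.0 to 53.3) in *Dnmt1*iECKO, a log2 ratio of -0.47 (-0.56 to -0.39), and -0.52 (-0.61 to -0.42) without clusters of other types. After each cell was thinned to 2000 UMIs, 10.9% (10.0 to 11.8) of endothelial cells still held a UMI in control and 8.94% (7.72 to 10.3) in *Dnmt1*iECKO (33.7% and 27.6% unthinned), whereas 0.169% and 0.143% of immune cells did, at median depths of 11102 and 9845 UMIs. *Mest* was below 0 in 11 of 13 classes. The levels in aerocyte-like cells were 138 and 96.6 CPM (-0.52, -0.66 to -0.38), in vein-like cells 30.0 and 14.0 CPM (-1.10, -1.71 to -0.51) and in interferon gamma activated-like cells 51.8 and 29.1 CPM (-0.83, -1.22 to -0.46). Proliferating-like cells had the opposite sign, at 41.3 and 83.6 CPM (1.02, 0.63 to 1.41), on 107 and 59 cells. In that class 1 *Dnmt1*iECKO cell held 40 *Mest* UMIs, and without it the levels were 41.3 and 61.8 CPM (0.58, 0.16 to 1.00), under 1.5-fold. The ratio weighted to the control classes was -0.30. *Mest* overlaps *Copg2* on the other strand, and how strand was used in counting is not given in the sources used here.

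The cluster on chromosome 7 whose human counterpart is deleted in Prader-Willi syndrome held 4 measured members, of which *Snrpn*, *Ndn* and *Ube3a* were lower in *Dnmt1*iECKO by their intervals. *Snrpn*, a spliceosomal protein gene, was at 4.74 CPM (4.21 to 5.31) and 3.17 CPM (2.54 to 3.91), for a log2 ratio of -0.58 (-0.94 to -0.23), or -0.68 (-1.11 to -0.27) without clusters of other types, and all 6 classes with enough UMIs were below 0, 1 of them, vein-like cells, by its interval, which included 0 without the cell with most UMIs (-1.18, -2.60 to 0.11). Its reads overlap *Snurf* on the same strand. *Ndn*, encoding necdin, a MAGE family protein of postmitotic cells, was at 7.90 CPM (7.22 to 8.64) and 5.98 CPM (5.11 to 6.97), for a log2 ratio of -0.40 (-0.66 to -0.14), or -0.48 (-0.80 to -0.16) without clusters of other types. By class *Ndn* was 6.66 and 2.88 CPM in aerocyte-like cells and 6.08 and 1.05 CPM in the cluster led by *Edn1*, but 1.47 and 4.97 CPM in interferon gamma activated-like cells, where 6 and 14 UMIs were counted and the ratio without 1 cell was 1.42 (-0.14 to 3.14). *Peg12*, a Frat family gene, gave 1.28 and 1.23 CPM, and *Magel2* had no UMI in either library, which allows up to 0.0487 CPM in control and 0.108 CPM in *Dnmt1*iECKO at 3 counts. *Ube3a*, the ubiquitin ligase gene of this region that is imprinted in neurons but not in most other cells, was at 150 CPM (147 to 153) and 138 CPM (133 to 142), with a log2 ratio of -0.12 (-0.18 to -0.067) that was below 0 in 12 of 13 classes.

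*H19*, the maternal noncoding RNA whose control region also governs *Igf2*, was rare. There were 22 UMIs in 11 of 5192 control cells and 21 UMIs in 8 of 2171 *Dnmt1*iECKO cells, or 0.357 CPM (0.224 to 0.540) and 0.757 CPM (0.469 to 1.16), for a log2 ratio of 1.08 (0.15 to 2.02). The 10 cells with most UMIs held 79.1% of them, and the top cell in each library held 9. Without clusters of other types 13 and 16 UMIs remained (1.49, 0.34 to 2.66), and leaving out the top control cell gave 1.84 in the gate. Leaving out the top *Dnmt1*iECKO cell instead, with 9 of the 21 UMIs there, would lower the ratio, and that value was not computed. All 43 UMIs lay in 19 cells. *Igf2*, the fetal growth factor gene expressed from the paternal copy, was at 5.16 CPM (4.61 to 5.76) and 4.69 CPM (3.92 to 5.56), for a log2 ratio of -0.14 (-0.44 to 0.16). *Igf2* had opposite signs in the largest classes, 119 and 23 UMIs in aerocyte-like cells (-0.80, -1.51 to -0.14) and 1.48 and 4.02 CPM in interferon-like cells, the latter on 14 and 12 UMIs.

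The maternal noncoding RNAs of the *Dlk1*-*Meg3* locus on chromosome 12 lay mostly in mural cells that had passed the gate. *Meg3* was at 7.97 CPM (7.28 to 8.70) and 8.69 CPM (7.62 to 9.86), and *Rian*, host of small nucleolar RNAs, at 1.95 CPM (1.61 to 2.33) and 2.09 CPM (1.59 to 2.70). Of 732 gated *Meg3* UMIs, 591 lay in the gated cluster named pericyte and smooth muscle, as did 125 of 178 *Rian* UMIs. Those cells had 383 and 208 *Meg3* UMIs, 169 and 179 CPM, with a log2 ratio of 0.090 (-0.16 to 0.34).

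Outside clusters of other types *Meg3* was 93 and 22 UMIs (-0.89, -1.63 to -0.21) and *Rian* 43 and 6 UMIs (-1.65, -3.18 to -0.42). In the cluster led by *Robo2*, 1 control cell held 50 of the 93 *Meg3* UMIs, and the top control cell held 35 of the 43 *Rian* UMIs. Without the top cell the log2 ratios were 0.22 (-0.59 to 0.99) and 0.77 (-1.03 to 2.49) in the same cells, and in the whole gate 0.28 (0.047 to 0.51) for *Meg3* and 0.60 (0.093 to 1.10) for *Rian*. For each gene the sign thus turned with 1 cell. *Mirg*, a microRNA host, had 6 and 4 UMIs, and *Dlk1*, a Notch-family ligand from the paternal copy, had none in the gate.

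**Figure D3:**
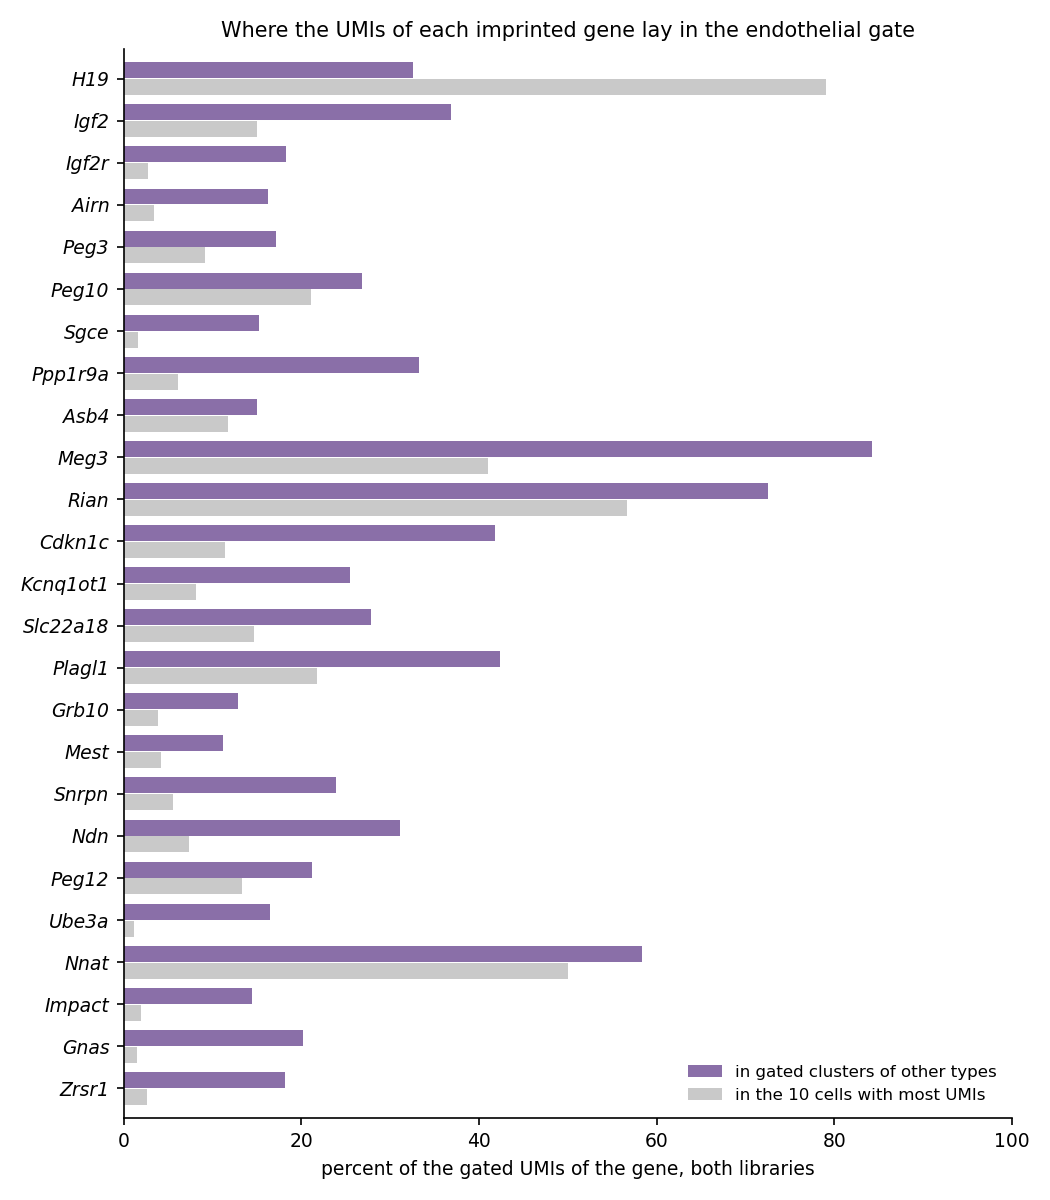
Percent of the gated UMIs of each member, both libraries together, that lay in clusters of other cell types (purple) and in the 10 cells with most UMIs of that gene (grey). The purple bars also count the lymphatic-like cells and the cluster led by *Igkc*. *Meg3*, *Rian* and *Nnat* have 84.3%, 72.5% and 58.3% in clusters of other types, and *H19* has 79.1% in 10 cells.

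*Nnat*, a small membrane protein gene of neuroendocrine and some epithelial cells, had the lowest ratio in the full gate. It was at 2.27 CPM (1.91 to 2.68) from 140 UMIs in control and 1.01 CPM (0.671 to 1.46) from 28 UMIs in *Dnmt1*iECKO, a log2 ratio of -1.17 (-1.81 to -0.58). Clusters of other types held 58.3% of these UMIs. Without them the libraries had 50 and 20 UMIs, 0.967 and 0.881 CPM, and the ratio was -0.13 (-0.96 to 0.64). In the gate, 9 epithelial marker genes summed to 3761 and 3311 CPM. The surfactant gene *Sftpc* alone gave 2848 and 2464 CPM of these, the other 8 summed to 913 and 847 CPM, and 5 of the 9 were higher in *Dnmt1*iECKO, among them *Epcam* at 6.86 and 10.2 CPM. Without those clusters the sums were 643 and 434 CPM. Gated cells in clusters named epithelial, 187 and 52 in number, held 78 and 5 of the *Nnat* UMIs.

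*Plagl1*, which encodes the zinc finger transcription factor ZAC1, gave different signs in different sets. In the gate it was at 4.58 CPM (4.06 to 5.14) and 4.87 CPM (4.08 to 5.76), for a log2 ratio of 0.089 (-0.22 to 0.39). Without clusters of other types, which held 42.4% of its UMIs, it was at 2.69 CPM (2.26 to 3.17) and 4.45 CPM (3.62 to 5.40), for a log2 ratio of 0.73 (0.34 to 1.11), and 0.48 (0.074 to 0.88) when 1 vein-like *Dnmt1*iECKO cell with 16 UMIs was left out. Weighted to the control classes the ratio was -0.36, the other sign.

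At the *Peg10* locus on chromosome 6, *Peg10*, a gene derived from a retrotransposon, was at 1.87 CPM (1.54 to 2.24) from 115 UMIs and 2.70 CPM (2.13 to 3.39) from 75 UMIs, a log2 ratio of 0.53 (0.095 to 0.97) that was 0.42 (-0.036 to 0.86) without the cell with most UMIs. In the cluster led by *Edn1* it was at 2.09 and 6.28 CPM, on 12 UMIs in each library, 6 of the *Dnmt1*iECKO ones in 1 cell, without which the ratio was 0.61 (-1.09 to 2.13). *Sgce*, which encodes epsilon-sarcoglycan and starts next to *Peg10* in the other direction, stood at 58.6 CPM (56.7 to 60.5) and 57.4 CPM (54.6 to 60.3). The maternal genes further along were slightly lower: *Ppp1r9a*, for the actin-binding protein neurabin, at 38.1 CPM (36.6 to 39.7) and 35.4 CPM (33.3 to 37.7), and *Asb4*, a ubiquitin ligase adaptor, at 16.6 CPM (15.6 to 17.7) and 15.1 CPM (13.7 to 16.6). Without clusters of other types their log2 ratios were -0.28 (-0.42 to -0.15) and -0.23 (-0.42 to -0.047). *Asb4* was 48.6 and 32.8 CPM in interferon-like cells (-0.57, -0.90 to -0.25), but 8.98 and 47.7 CPM in artery-like cells, where 5 of 50 control and 10 of 48 *Dnmt1*iECKO cells held 6 and 28 UMIs.

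Of the *Peg3* locus, *Peg3*, a zinc finger gene, was at 16.1 CPM (15.1 to 17.2) and 17.3 CPM (15.8 to 18.9), for a log2 ratio of 0.10 (-0.059 to 0.26), with opposite signs by class. It was higher in interferon-like cells (16.3 and 26.8 CPM) and in the cluster led by *Edn1* (16.9 and 29.8 CPM), and lower in proliferating-like (35.9 and 17.7 CPM), vein-like (10.8 and 4.93 CPM) and interferon gamma activated-like cells (21.9 and 12.8 CPM). Each of those 5 class intervals excluded 0, but without the cell with most *Peg3* UMIs of the class this held only for proliferating-like cells (-0.76, -1.43 to -0.11). In interferon-like cells 1 *Dnmt1*iECKO cell held 19 UMIs, and without it the ratio was 0.33 (-0.12 to 0.77). In the cluster led by *Edn1* it was 0.30 (-0.28 to 0.85) without a cell with 18 UMIs, in vein-like cells -0.78 (-1.90 to 0.28) and in interferon gamma activated-like cells -0.57 (-1.19 to 0.015). Its neighbors *Zim1* and *Usp29* had 13 and 10 UMIs over both libraries, too few for a ratio to be read.

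The remaining members are widely expressed. *Gnas*, the gene for the stimulatory G protein alpha subunit, was at 946 CPM (938 to 953) and 917 CPM (905 to 928), for a log2 ratio of -0.045 (-0.066 to -0.024), a narrow interval set by 83715 UMIs. *Nespas*, the paternal RNA antisense to *Gnas*, had 6 and 5 UMIs. *Grb10*, an adaptor that restrains insulin and IGF receptor signaling and uses different promoters from each parental copy, was at 102 CPM (99.1 to 104) and 101 CPM (97.0 to 104). Of 13 classes, *Grb10* was above 0 in 5 and below in 8, with 0 intervals above and 4 below. Without the cell with most UMIs of the class, intervals lay below 0 in vein-like cells (-0.26, -0.46 to -0.068). The same held for the clusters led by *Edn1* (-0.32, -0.59 to -0.067) and *Fabp4* (-0.80, -1.61 to -0.064). The amounts of *Impact*, a regulator of the GCN2 stress kinase, were 40.6 CPM (39.1 to 42.3) and 41.8 CPM (39.4 to 44.3), and those of *Zrsr1*, a splicing factor retrogene in an intron of *Commd1*, 18.5 CPM (17.5 to 19.7) and 16.8 CPM (15.3 to 18.4). *Impact* was 27.0 and 43.3 CPM in interferon gamma activated-like cells (log2 ratio 0.68, 0.30 to 1.07), its only class ratio with an interval clear of 0.

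Other cells of the same libraries, which do not normally use the *Cdh5* promoter, were compared next. They were 483 and 421 putative tumor cells (at least 1 UMI of *Hmga2*, none of *Ptprc*) and clusters of fibroblasts (375 and 440 cells), immune cells (1211 and 4310), epithelial cells (334 and 151), pericytes and smooth muscle cells (198 and 135) and mesothelial cells (49 and 74). These sets are not free of endothelial RNA. *Cdh5* stood at 742 and 731 CPM in the pericyte clusters, 278 and 217 CPM in fibroblasts, 194 and 76.4 CPM in putative tumor cells, and 28.0 and 4.69 CPM in immune cells. *Dnmt1* was lower in the *Dnmt1*iECKO pericyte clusters (-0.89, -1.42 to -0.39), fibroblasts (-0.55, -0.88 to -0.22) and epithelial cells (-0.59, -1.08 to -0.12) as well. Of these sets, 115 and 56 pericyte cells, 150 and 49 epithelial cells and 85 and 62 fibroblasts were also in the endothelial gate. So were 6 and 14 immune cells, but no putative tumor or mesothelial cells.

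In these sets the members had medians from -0.086 in epithelial cells to 0.045 in fibroblasts, with 5 higher and 5 lower by 1.5-fold in putative tumor cells (7.73% and 9.54% of all genes), 6 and 2 in fibroblasts (6.60% and 5.56%), 1 and 4 in epithelial cells (9.20% and 6.77%), 0 and 2 in pericytes (9.65% and 6.82%) and 4 and 7 in mesothelial cells (10.7% and 9.79%). *Airn* had the same sign in 6 of 7 cell types, endothelium included. It was at 433 and 457 CPM in putative tumor cells, 531 and 585 CPM in fibroblasts, 167 and 216 CPM in epithelial cells, 315 and 378 CPM in pericytes, and 63.9 and 71.6 CPM in immune cells, while mesothelial cells had 433 and 384 CPM. The endothelial log2 ratio exceeded that of tumor cells by 0.17 (0.11 to 0.24) and that of fibroblasts by 0.11 (0.034 to 0.18), and it was below that of epithelial cells by an interval that included 0 (-0.12, -0.27 to 0.028). Against immune cells (0.085, -0.013 to 0.18) and pericytes (-0.018, -0.15 to 0.12) the interval of the difference also included 0. All these differences used the pooled endothelial ratio. Their intervals treat the compared sets as separate cells, which does not hold for fibroblasts, epithelial cells, pericytes and immune cells. For those sets the intervals are only rough. Weighted to the control classes, the endothelial *Airn* ratio was 0.078, beside 0.076 in putative tumor cells and 0.14 in fibroblasts. The latter ratios were pooled and not weighted for makeup, so these are unlike measures. In the clusters led by *Hmga2* the *Airn* ratio was -0.023 (-0.071 to 0.025).

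**Figure D4:**
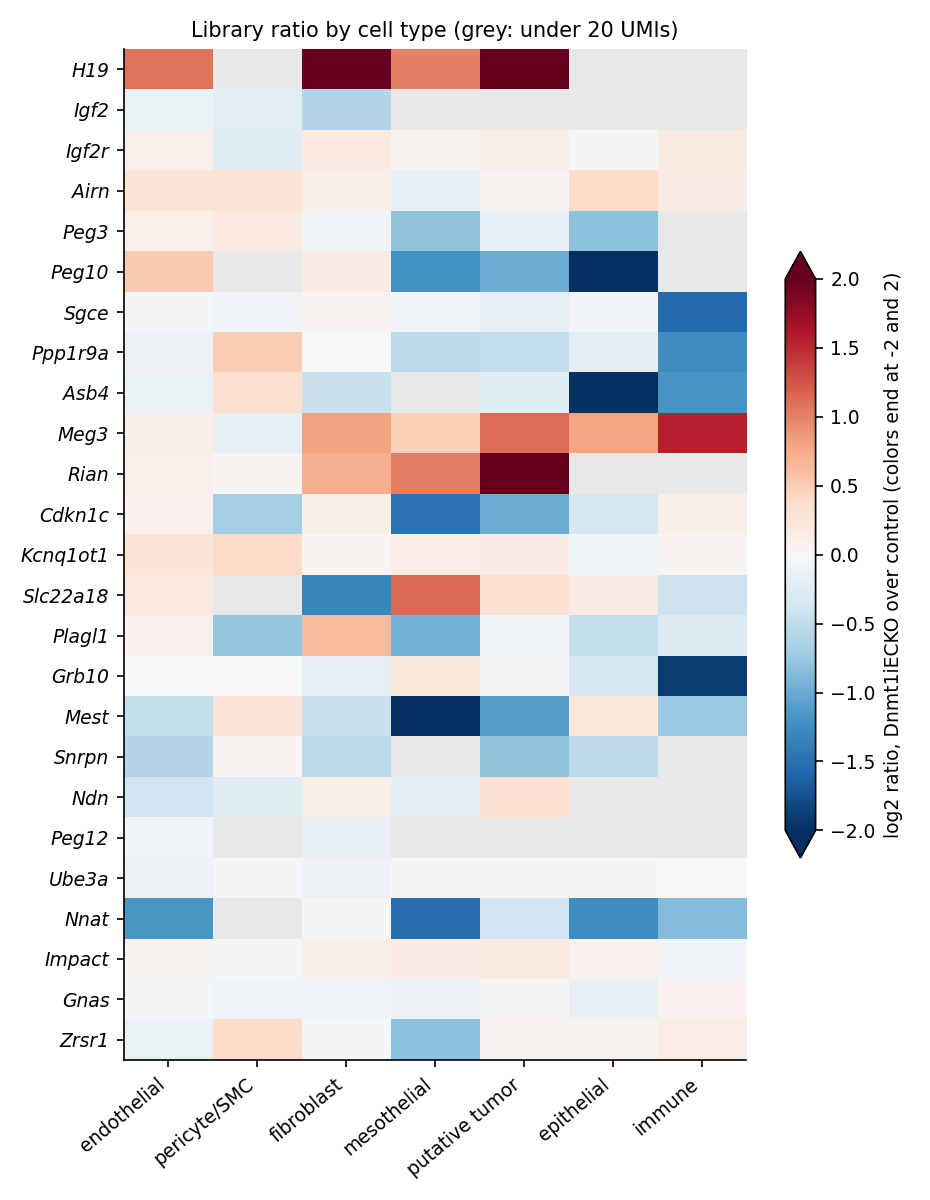
Log2 ratio of the *Dnmt1*iECKO over the control library for the 25 members (down) in 7 cell types (across), red above and blue below 0, colors ending at -2 and 2, grey under 20 UMIs. *Airn* is faintly red in 6 of 7 columns, *Ube3a*, *Gnas* and *Impact* are near white, and the ratios past the ends of the scale all fall outside the endothelial column.

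*H19* and the *Meg3* locus had larger ratios in some other cell types than in endothelium, again with a large share of UMIs in single cells. *H19* was 6 and 53 UMIs in putative tumor cells, 5 and 27 in fibroblasts, and 21 and 68 in mesothelial cells. In each of these the top *Dnmt1*iECKO cell held most of the *Dnmt1*iECKO count, with 42, 25 and 48 UMIs, and without it the log2 ratios were 0.49 (-1.07 to 2.21), -1.48 (-4.88 to 1.13) and -0.73 (-1.69 to 0.23). *H19* in pericytes was 9 UMIs in control and 0 in *Dnmt1*iECKO. *Meg3* was at 72.7 and 126 CPM in fibroblasts and 233 and 326 CPM in mesothelial cells, and *Rian* at 24.7 and 41.0 CPM and 65.7 and 133 CPM. Without the top cell *Meg3* was still higher in fibroblasts (0.58, 0.43 to 0.73) and mesothelial cells (0.24, 0.10 to 0.38), and *Rian* as well (0.35, 0.085 to 0.62, and 0.66, 0.41 to 0.91).

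Among fibroblasts the *Dnmt1*iECKO library had a higher *Dcn* level, 1129 and 2201 CPM, and its part in the *Meg3* difference was not tested. In putative tumor cells *Meg3* was 13.6 and 29.4 CPM, but 6 control and 18 *Dnmt1*iECKO cells of this set lay in the mesothelial cluster. The clusters led by *Hmga2*, with 125 and 200 cells, had 0 and 8 *Meg3* UMIs. *Dlk1* was seen only in the *Dnmt1*iECKO library, 63 UMIs over all its cells, of which 40 lay in 3 putative tumor cells and 32 in 1 of them. Against a floor of 3 UMIs in the control library this put *Dlk1* in putative tumor cells at least 3.35 higher on the log2 scale, a bound resting on those 3 cells.

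**Figure D5:**
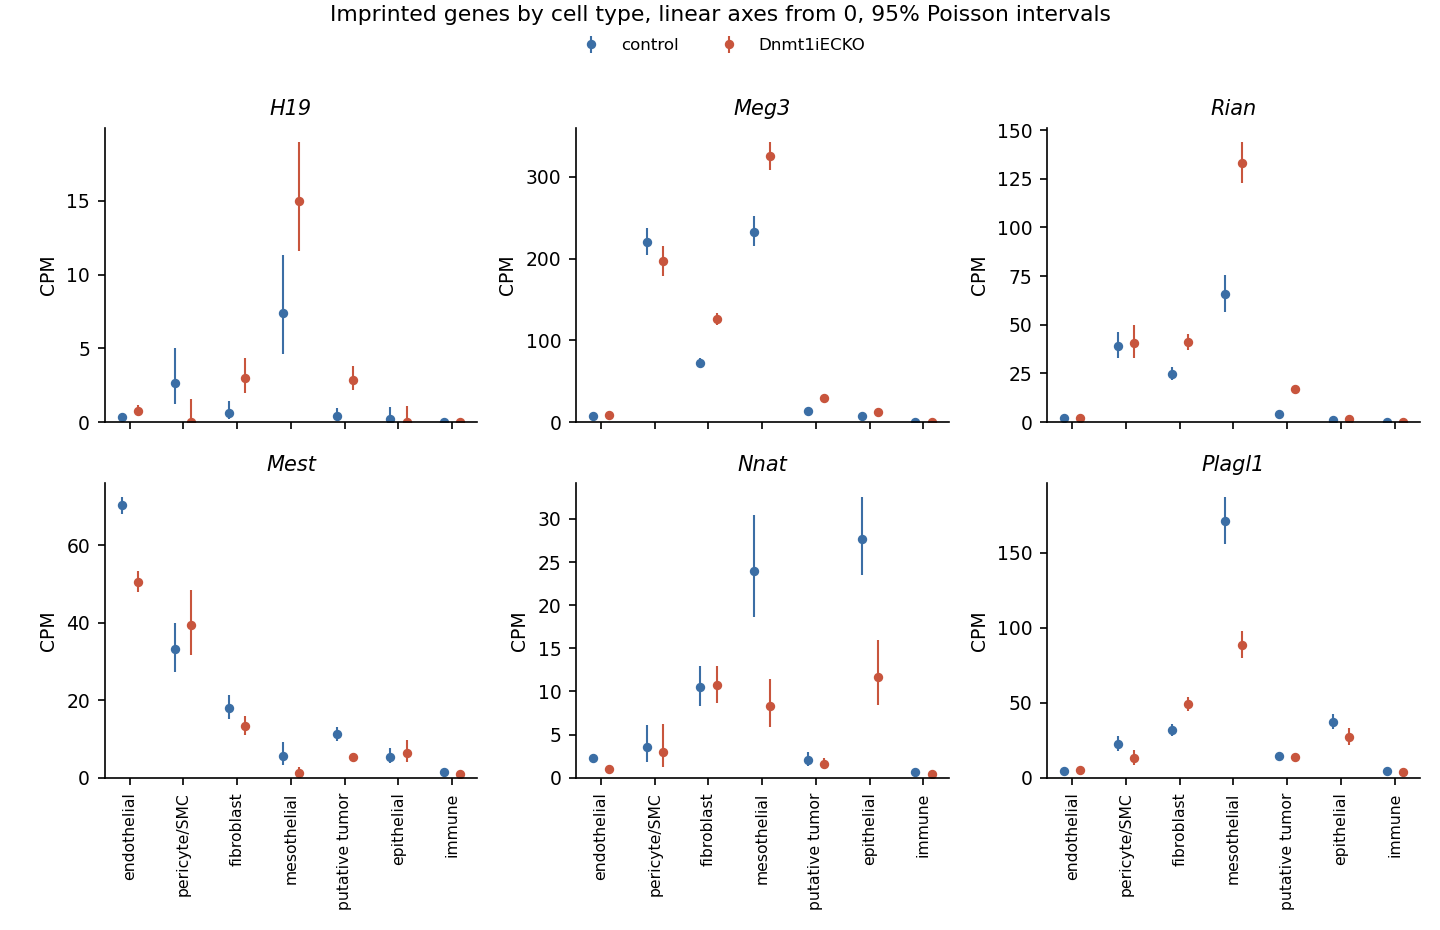
CPM of 6 members in 7 cell types on linear axes from 0, for control (blue) and *Dnmt1*iECKO (red) with 95% Poisson intervals. *Meg3*, *Rian*, *H19* and *Plagl1* are highest in mesothelial cells, and *Mest* is highest in endothelial cells, at 70.3 and 50.6 CPM.

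*Mest* was lower in the *Dnmt1*iECKO library in 5 of 7 cell types by its interval. Fibroblasts had 18.1 and 13.3 CPM (-0.44, -0.80 to -0.080), putative tumor cells 11.3 and 5.28 CPM (-1.10, -1.48 to -0.72), immune cells 1.49 and 0.889 CPM and mesothelial cells 5.65 and 1.32 CPM, the last on 16 and 6 UMIs. Pericytes (33.3 and 39.5 CPM) and epithelial cells (5.47 and 6.46 CPM) had intervals that included 0. In the clusters led by *Hmga2* there were 12 and 20 *Mest* UMIs (log2 ratio 0.072, -1.03 to 1.24). *Cdh5* was lower together with *Mest* in the fibroblast, putative tumor, immune and mesothelial sets (53.0 and 4.40 CPM in the last), and its part in the *Mest* values was not tested.

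In immune cells 2 members were at least 1.5-fold higher (10.4% of all genes) and 6 lower (8.52%). Several with very low levels there were lower in *Dnmt1*iECKO, with *Grb10* at 2.52 and 0.675 CPM, *Sgce* at 1.40 and 0.475 CPM, *Asb4* at 2.20 and 0.966 CPM and *Ppp1r9a* at 8.55 and 3.59 CPM. *Cdh5* in the same cells was also lower, as given above, and its part in these values was not tested. *Kcnq1ot1* (111 and 115 CPM), *Ube3a* (110 and 111 CPM) and *Impact* (65.4 and 62.9 CPM) had log2 ratios of 0.057, 0.013 and -0.057 there. *Peg10*, higher in endothelial *Dnmt1*iECKO cells, was lower in putative tumor cells (15.9 and 7.95 CPM), in mesothelial cells (8.12 and 3.52 CPM) and in epithelial cells (5.83 and 1.17 CPM, where 20 of 32 control UMIs were in 1 cell).

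*Phlda2* and *Nespas*, with 14 and 11 UMIs in the endothelial gate, were measured in putative tumor cells. *Phlda2* was 7.52 CPM (6.16 to 9.10) and 4.14 CPM (3.26 to 5.18), but 61 of 106 control UMIs were in 1 cell, and without it the log2 ratio was 0.36 (-0.19 to 0.92). *Nespas* was 11.2 CPM (9.53 to 13.1) and 8.76 CPM (7.46 to 10.2), in 64 and 91 cells, and without the control cell with 30 UMIs its ratio was -0.091 (-0.44 to 0.25). *Plagl1* was higher in fibroblasts (31.7 and 49.1 CPM) and lower in mesothelial cells (171 and 88.5 CPM), pericytes (76 and 30 UMIs) and epithelial cells (37.4 and 27.0 CPM). Without the cell with most UMIs these log2 ratios were 0.30 (0.067 to 0.54), -0.70 (-0.90 to -0.50), -0.13 (-0.84 to 0.56) and -0.37 (-0.74 to 0.00).

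The factors that keep imprints, a list of 18 genes all present in the files, were measured alongside. Of 17 with at least 20 UMIs in endothelial cells, 0 were 1.5-fold higher and 1 was 1.5-fold lower, beside 9.82% and 5.28% of all genes. The lower one was *Dnmt1*, the deleted gene itself, and the median of the 17 was -0.065. *Uhrf1*, which guides DNMT1 to newly copied DNA, was at 4.84 and 6.13 CPM (log2 ratio 0.34, 0.061 to 0.62), and *Zfp57* at 13.5 and 15.5 CPM (0.20, 0.033 to 0.37). *Zfp445* (0.035), *Smchd1* (0.006), *Hells* (0.024), *Suz12* (-0.023), *Ezh2* (-0.059), *Eed* (-0.065), *Ctcf* (-0.067), *Dnmt3b* (-0.071), *Tet1* (-0.093), *Trim28* (-0.13), *Tet3* (-0.14), *Dnmt3a* (-0.17) and *Tet2* (0.17) lay within 0.17 of 0 on the log2 scale, and *Setdb1*, the histone methyltransferase recruited by TRIM28, was at 35.5 and 29.4 CPM (-0.27, -0.39 to -0.16). *Dppa3* had no UMI.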

How the data were processed

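Sorted cells were profiled with 10x 3′ chemistry. Per the methods of the study, the authors aligned reads with Cell Ranger 9.0.1 to mm10 and deposited filtered count matrices, whole UMI counts per gene and barcode. Whether intron reads were counted, and with which strand setting, is not given in the sources used here. The matrices held 9301 control and 9522 *Dnmt1*iECKO barcodes with 123830489 and 141433493 UMIs.

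Barcodes with at least 500 genes and at most 10% mitochondrial UMIs were kept after removal of the highest Scrublet scores at 0.4% per 1000 cells, leaving 7764 and 7839. Scrublet stood in for the doublet caller of the study. Cells were clustered with scanpy 1.11.5 on 2000 variable genes without the imprinted genes and *Dnmt1* (30 components, 15 neighbors, Leiden resolution 1.0). A cluster was named from at least 3 markers in 10% of cells at a log2 fold of at least 1, including 1 of its 10 leading genes, and stayed unnamed if a leading gene marked another endothelial class. That last rule, and calling clusters immune when over 50% of cells held *Ptprc*, were set after seeing the data. Ratios used summed UMIs, with intervals from scipy 1.17.1. Positions came from the annotation, where 32158 of 32285 gene IDs matched. All members with at least 20 UMIs are named with their values, as are list genes with at least 100. Ratios were checked on simulated data. The members and lists were chosen with earlier results of these data known. Alternatives covered cell filters, doublets, the gate, scaling, class makeup, count minimums, thinning and clustering.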

Additional observations from a re-analysis of the deposited data

Results flagged for a closer look

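Values in endothelial cells and in another cell type had opposite signs, with counting intervals on both sides clear of 0, for *Peg10*, *Airn* and *Gnas*. The *Peg10* log2 ratio was 0.53 in endothelial cells, and it was below 0 in putative tumor cells (15.9 and 7.95 CPM, interval -1.31 to -0.69), a difference of 1.53, -2.31 in epithelial cells, a difference of 2.85, and -1.21 in mesothelial cells (-2.22 to -0.22), a difference of 1.74. Without the 1 cell with most *Peg10* UMIs these values were 0.42, -0.81, -0.91 and -0.72, and the intervals in endothelial (-0.036 to 0.86), epithelial (-3.00 to 0.81) and mesothelial cells (-1.81 to 0.38) then included 0. *Airn* was 0.25 (0.20 to 0.29) in endothelial and -0.17 (-0.28 to -0.067) in mesothelial cells, a difference of 0.42 (0.31 to 0.54). *Gnas* was -0.045 in endothelial and 0.080 in immune cells, a difference of -0.13. Without clusters of other types in the endothelial set, *Meg3*, *Rian*, *Cdkn1c*, *Plagl1* and *Ppp1r9a* also had opposite signs against at least 1 other cell type. For *Meg3* and *Rian* this endothelial sign rested on 1 control cell each, without which the ratios were 0.22 (-0.59 to 0.99) and 0.77 (-1.03 to 2.49). Without their top cells *Cdkn1c* (0.33), *Plagl1* (0.48) and *Ppp1r9a* (-0.27) kept the endothelial sign. With 1 library per condition these differences were not tested.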

How the results depend on the processing

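Over 17 alternatives per member, 16 of 25 ratios kept their sign, 7 above 0 and 9 below, and 9 took both signs or reached 0. The median of the members stayed between -0.085 (classes weighted as in control) and 0.065 (members with at least 5 UMIs). The number of members 1.5-fold higher, 1 in the report, was 2 with doublets at 0.8% per 1000 cells, 3 with *Hmga2* and *Dcn* left out of the gate, 3 without clusters of other types, 0 with at least 100 UMIs and 3 with at least 5. The number lower, also 1, was 2 when both *Cdh5* and *Pecam1* were required, 0 without *Hmga2* and *Dcn*, 3 without clusters of other types, 3 with the mean over cells and 2 with control class shares. Alternatives chosen after seeing the data gave 4 higher and 2 lower without the clusters led by *Robo2* and *Fabp4* as well, 2 lower without the shallow cluster, and 2 higher without the top cell of each member. Of all genes, 9.82% were higher and 5.28% lower in the gate, and 10.6% and 4.96% without clusters of other types. Shares under the other alternatives are not given here, so those counts cannot be set against all genes. Of 54 class ratios with an interval clear of 0, 31 stayed clear of it without the cell with most UMIs in the class, and *Meg3* in the cluster led by *Robo2* turned to 3.33 (0.43 to 8.80), on 1 and 8 UMIs. In the pooled gate 21.3% of all genes had an interval wholly above 0 and 20.2% wholly below. Such shares by class are not given here, so the 54 cannot be read as particular to the members. Without *Hmga2* and *Dcn* in the gate *Meg3* reached 1.89 and *Rian* 2.48. The interferon-like median was -0.48 at Leiden resolution 2.0, on 6 members, and -0.16 in the report. Members found in at least 1% of control endothelial cells were 15 thinned and 23 unthinned. The cause of these changes was not tested. In the gate 7 members had fewer than 20 UMIs and no ratio was read for them. No paired analysis was possible because each condition was 1 library, and for the same reason no replicate could be left out.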

Other observations

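Beyond the 32 members, 49 other imprinted genes were listed, of which 48 were in the files and 39 had at least 20 UMIs in endothelial cells. Their median log2 ratio was -0.011, with 18 above 0 and 21 below, and 6 were 1.5-fold higher and 3 lower, beside 9.82% and 5.28% of all 16219 genes. Of those with at least 100 UMIs, *Begain* was lower (8.08 and 3.60 CPM, log2 ratio -1.16, -1.49 to -0.85, and -1.14 without clusters of other types). *Pde10a*, a phosphodiesterase gene, was higher (4.02 and 7.14 CPM, 0.83, 0.55 to 1.10, and 0.93 without those clusters). *Smoc1*, a matrix protein gene, was 0.811 and 3.97 CPM (2.29, 1.79 to 2.80) in the gate but -0.24 without those clusters.

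Smaller differences with narrow intervals were seen at the neighbors of members, chosen here after their values were seen. *Cd81*, a tetraspanin gene next to the *Kcnq1ot1* domain, was 115 and 148 CPM (0.36, 0.31 to 0.42), and *Kcnq1*, which *Kcnq1ot1* crosses on the other strand, was 88.7 and 74.0 CPM (-0.26, -0.33 to -0.19). *Slc22a3*, silenced with *Igf2r* on the paternal copy in the placenta, was 0.811 and 1.59 CPM (0.97, 0.35 to 1.58) from 50 and 44 UMIs. The hosts and partners of other members, *Commd1* (0.034), *Copg2* (-0.025) and *Blcap* (-0.001), had log2 ratios near 0.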
